A study of Mus musculus with 104 samples.

Results

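The comparison described here is of the hypothalamus of young and aged C57BL/6 mice. It takes the 10 arrays whose titles name this strain and region, of 104 samples in the series. Young mice were 2-3 months old and aged mice 22-24 months old, with 5 arrays each, 1 mouse per array. All were males labelled C57BL6/J, with no transgene or drug named in the labels. The study bought its mice from an aged colony and took brains from part of them after recording their behavior in home cages. Total RNA of the hypothalamus was labelled in 1 colour and hybridized to Agilent whole mouse genome arrays, which read each transcript as the brightness of 60-base probes. Values are log2 intensities, made equal in distribution across the 10 arrays, so that a difference of 1 is a 2-fold change. The question of the comparison is which transcripts differ with age in this region and strain, beside the hypothalamus of BALB and CBA mice. In both of those strains young mice were 2-3 months old, while aged mice were 20-23 months old in BALB and 21-23 months old in CBA. Middle-aged BALB mice of 12-13 months also entered the joint fit of C57BL/6 and BALB mice.

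The hypothalamus sits at the floor of the brain below the thalamus, and sets feeding, body temperature, water balance, reproduction and stress hormones. Its neurons are known by the peptides they release, such as orexin, melanin-concentrating hormone, vasopressin, oxytocin and the products of Pomc. The thalamus relays sensory and motor signals to the cortex, and its neurons carry their own set of transcription factors and channels. In whole tissue RNA, more cells of a type and more RNA per cell cannot be told apart, and a block of tissue cut with a wider margin holds neighbouring regions too.

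The labelled tissue was checked against gene lists. All 29 measured hypothalamus neuropeptide genes, 16 hypothalamus transcription factors and 32 hypothalamus receptor genes were well above background on all 10 arrays. Measured genes had already passed a filter of well above background on at least 5 of 10 arrays. All 8 measured habenula, 11 striatum and 8 T cell genes were well above background on all 10 arrays too, so these counts do not identify the tissue. The arrays lie on 5 slides, each with 1 young and 1 aged array. Slide 1 holds young 1 and aged 1, slide 2 young 2 and aged 3, slide 3 young 3 and aged 4, slide 4 young 4 and aged 5, and slide 5 young 5 and aged 2. Arrays differed up to 1.51-fold in the 75th percentile of their intensity, 78.7% to 87.87% of probes were well above background, and no probe was saturated. Correlations between arrays across probes ran from 0.9825 to 0.9945.

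Slides 1 and 2 ran against the age labels in genes that change with age in the other strains. In the hypothalamus of BALB mice (7 young and 6 aged) and CBA mice (7 young and 8 aged), 19 genes were called in both, all higher in aged mice. They were chosen on those arrays alone, and 3 of them (H2-Q2, H2-Q7 and H2-Q10) have near-identical copies that probes may not tell apart. On slides 3, 4 and 5 the array labelled aged was higher for 19, 19 and 18 of these 19 genes. On slide 1 it was higher for 1 gene, and on slide 2 for 0 genes. The mean log2 level of the 19 genes was 10.69, 10.76, 9.57, 9.25 and 9.6 on the arrays labelled young 1 to 5, and 9.61, 10.93, 9.5, 11.23 and 10.42 on those labelled aged 1 to 5. The arrays labelled young 1 and young 2 thus lay above the array labelled aged 5, and those labelled aged 1 and aged 3 lay beside the other 3 young arrays.

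Itgax, an integrin of activated microglia and dendritic cells, was 2.72 ± 0.23 (SE) higher in aged BALB mice and 1.89 ± 0.35 higher in aged CBA mice on the log2 scale. On the arrays labelled young 1 to 5 its level was 8.83, 8.99, 6.12, 5.26 and 5.87. On those labelled aged 1 to 5 it was 5.68, 9.9, 5.82, 10.4 and 8.44. The groups overlap in part, and the slides do not share a direction: aged minus young was -3.15 and -3.16 on slides 1 and 2 but 4.28, 3.19 and 4.04 on slides 3 to 5. C4b, a complement component, gave -2.45 and -2.07 on slides 1 and 2 and 2.28, 1.75 and 1.64 on slides 3 to 5. C3, the central component of complement, gave -1.79 and -1.68 against 1.16, 0.78 and 0.72. The pattern was not limited to immune genes, since Pcdhb3, a protocadherin of neurons, gave -0.45 and -0.56 against 0.74, 0.92 and 0.82. Ucn, which codes for the peptide urocortin, was the 1 gene higher in the aged array of slide 1, by 1.7.

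Not every gene ran against the labels on slides 1 and 2. Sox11, a transcription factor of immature neurons, was lower in the aged array of every slide. Its differences were -0.56, -0.34, -0.74, -0.22 and -0.89 on slides 1 to 5. It was called (-0.55 ± 0.13) only with the slide as a random block and not without a block. That fit favours genes that keep 1 direction within the slides, so the shared direction of Sox11 is a description only. Sox11 is a single gene, and its list of newborn neuron and dividing cell genes differed by -0.08, 0.06, 0.03, -0.26 and -0.36. The share of all genes that keep 1 direction on every slide is not given here. Whether the labels, the animals or the handling of slides 1 and 2 set the reversed direction was not tested, and each array stays in the group its label gives. The main counts are also given without the 4 arrays of these slides, a choice made after seeing the data. With 3 arrays a side left, the immune genes in that fit are a description only, because the slides were left out for their values. The thalamus, neuropeptide and hypothalamus transcription factor lists differed by only -0.01, -0.05 and 0.03 on slide 2. The other counts and differences of that fit are therefore a description too.

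**Figure D1:**
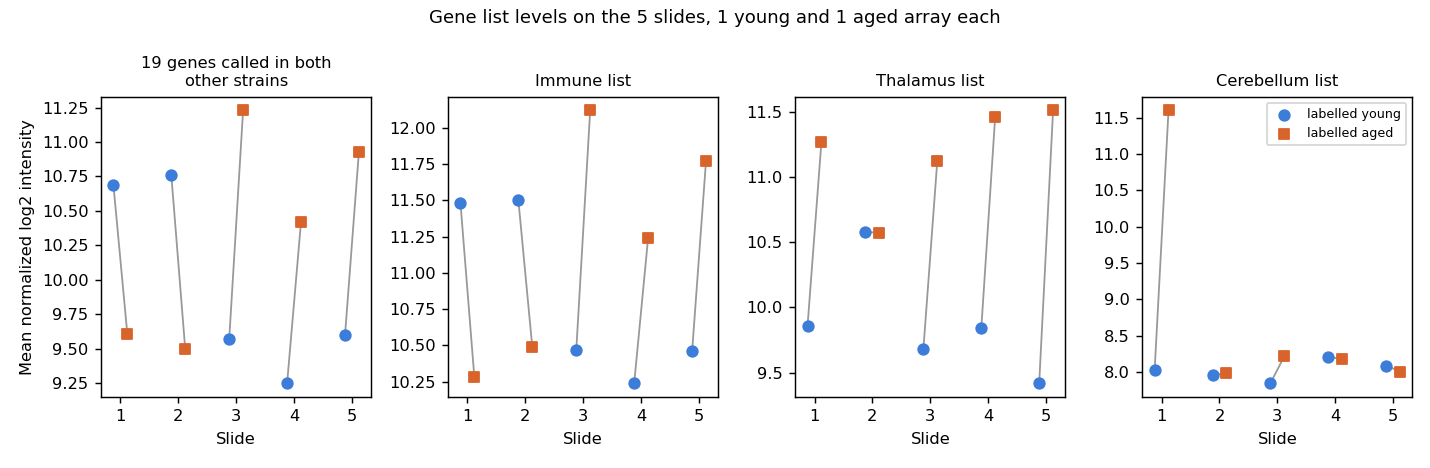
Mean normalized log2 intensity of 4 gene sets (y axis) on each of the 5 slides (x axis), with the array labelled young as a circle, the array labelled aged as a square and a line joining them. The 19 genes called in BALB and CBA mice and the immune list run downward on slides 1 and 2 and upward on slides 3 to 5, the thalamus list runs upward on every slide but slide 2, where the difference is -0.01, and the cerebellum list reaches 11.6 on aged 1 alone.

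Between young and aged C57BL/6 hypothalamus, 34 of 23801 genes were called, which is 0.143% of the genes tested, and all 34 were higher in aged mice. A gene was called when limma's B, the log odds of a difference, was above 0 for any of its probes. The differences ran from 0.52 to 2.41 on the log2 scale, or 1.43-fold to 5.31-fold, with 22 genes over 2-fold. Young and aged arrays did not overlap for 31 of the 34, against 0.941% of all genes tested. The 34 were chosen on these same arrays, so this separation adds no support. The calls are weak by another measure, since only Gpr4 had a Benjamini-Hochberg adjusted p under 0.05 in limma (0.0257), and the other called genes had adjusted p-values of 0.222 to 0.287. At an unadjusted p under 0.05 in limma there were 1426 genes by any of their probes. By the brightest probe 2.22% of the genes tested were higher and 2.7% lower, which together is near the share that chance gives. That holds for the fit without a slide term. At the same unadjusted limit in limma, by any probe, there were 3456 genes with the slide as a fixed block. With the slide as a random block there were 3803. The list of thalamus genes held 9 of the called genes: Tnnt1, Ramp3, Prkcd, Synpo2, Ptpn3, Rora, Vav3, Tcf7l2 and Ntng1. Without slides 1 and 2, 158 genes were called (0.656% of 24079), with 144 higher and 14 lower. These 158 include 28 of the 34. They are a description only, since the slides were left out after seeing the data and slide 2 is where the 34 genes differed least. The count also fell away under other settings, to 0 in 5 of the 10 fits that left out 1 array (without young 1, young 5, aged 1, aged 2 or aged 5; limma, 835 to 1356 genes at an unadjusted p under 0.05), to 0 with the replicate block (1045 genes) and to 17 with the slide as a fixed block, which kept 2 of the 34. With the slide as a random block it was 147.

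Gpr4, a proton-sensing receptor of blood vessel endothelium, had the lowest adjusted p. Its log2 level was 7.57, 7.68, 7.62, 7.78 and 7.37 on the young arrays, and 8.55, 8.58, 8.5, 8.75 and 8.76 on the aged arrays. No aged array came near a young one, and the difference was 1.02 ± 0.1 (SE, n = 5 and 5). A second Gpr4 probe was dimmer (mean 4.41 in young and 4.43 in aged mice) and differed by 0.02 ± 0.301. The probes of this gene thus disagree. Gpr4 was also called with the slide as a fixed block, together with the transcript AK043274, and these were the only 2 of the 34 called in that fit.

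Among the called genes the largest difference was that of a gene on the thalamus list. Tnnt1, a troponin T of slow muscle that is also made by thalamic neurons, had log2 levels of 10.05, 11.28, 10.4, 9.64 and 8.93 on the young arrays. On the aged arrays it had 12.5, 12.71, 11.71, 12.56 and 12.87, a difference of 2.41 ± 0.39 (SE; limma, adjusted p = 0.222). The 2 arrays of slide 2 lay closest to each other, young 2 being the highest young array and aged 3 the lowest aged one.

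Ramp3, which pairs with the calcitonin receptor-like receptor, read 10.4, 12.03, 10.28, 10.61 and 9.85 in young mice and 13.02, 13.32, 12.19, 13.03 and 13.17 in aged mice. It was 2.31 ± 0.37 higher, with young 2 just below aged 3. Synpo2, an actin-binding protein, read 5.98, 7.3, 6.29, 6.57 and 5.84 in young and 8.19, 8.24, 7.56, 8.44 and 8.5 in aged mice, a difference of 1.79 ± 0.27. Rora, a nuclear receptor, read 6.23, 7, 5.83, 6.34 and 5.9 in young and 8.18, 7.89, 7.33, 7.23 and 8.02 in aged mice, and all 3 of its probes were called. Ptpn3, a tyrosine phosphatase, read 4.41, 5.03, 4.52, 4.08 and 4.25 in young and 6.26, 6.33, 5.45, 6.68 and 6.4 in aged mice. Another Ptpn3 probe, with a mean of 6.19 in young and 6.41 in aged mice, differed by 0.22 ± 0.137.

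Prkcd, the delta isoform of protein kinase C, was 2.31 ± 0.45 higher but was the last gene inside the threshold (B rounds to 0), and its groups overlapped because young 2, at 12.16, exceeded aged 3, at 11.99. Vav3 was 1.18 ± 0.2 higher. Tcf7l2, the transcription factor at the end of the Wnt pathway, was 1.17 ± 0.21 higher, and all 4 of its probes were higher with 2 of them called. Ntng1, which codes for the axon guidance protein netrin-G1, was 1.05 ± 0.18 higher, with all 4 probes higher and 1 called.

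Among the thalamus genes that were not called, Shox2, a homeobox factor, read 4.59, 6.28, 3.07, 4.66 and 2.3 in young and 7.43, 7.86, 6.29, 6.71 and 7.96 in aged mice. Only 3 of the 5 young arrays read it well above background. The groups did not overlap, but young 2 and aged 3 differed by 0.01, and the difference of 3.07 ± 0.66 had an adjusted p of 0.363 in limma. Gbx2, a homeobox factor of the developing thalamus, differed by 1.93 ± 0.5 and Lef1, the partner of Tcf7l2 in Wnt signalling, by 0.91 ± 0.23, neither being called. With the slide as a random block Shox2 and Lef1 were called, and without the arrays of slide 2 Gbx2 (2.48) and Shox2 (3.83) were. Just outside the threshold lay Necab1 (1.12), Plekhg1 (1.39, on the thalamus list) and Prkch (1.15).

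**Figure D2:**
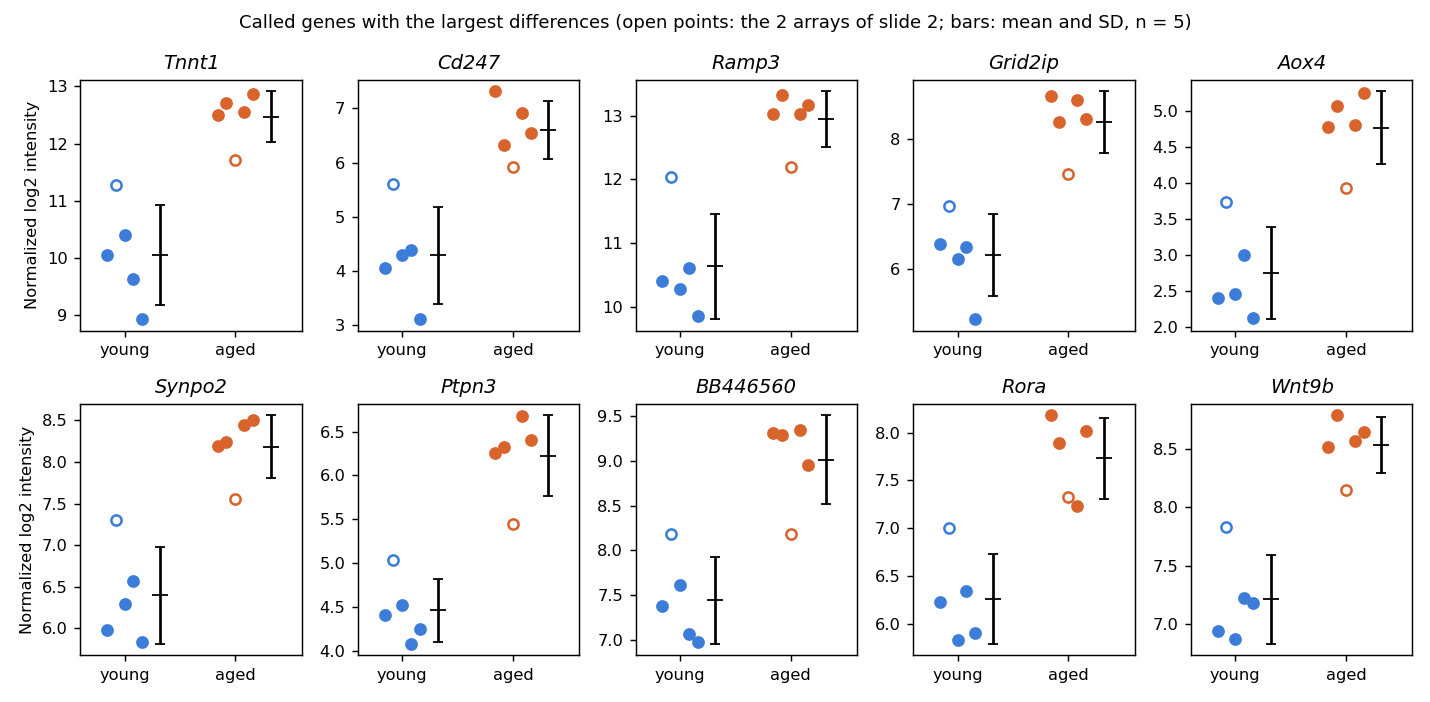
Normalized log2 intensity (y axis) of the 10 called genes with the largest differences among those whose young and aged arrays do not overlap, on each of 5 young and 5 aged arrays (x axis), with the mean and SD beside the points. The open points are young 2 and aged 3, which share slide 2 and lie closest to the other group except in Rora, where aged 4 (7.23) is below aged 3 (7.33). In Tnnt1 they read 11.28 and 11.71.

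The thalamus list leaned to 1 side as a whole. All 18 of its genes were higher in aged mice, with a median difference of 1.13 on the log2 scale, against a median of -0.021 over all genes tested. At an unadjusted p under 0.05, 15 of 18 were higher and 0 lower, where 2.22% of all genes were higher and 2.7% lower. Its mean level was 9.86, 10.58, 9.68, 9.84 and 9.42 on the young arrays and 11.27, 11.51, 10.57, 11.12 and 11.46 on the aged arrays. Young 2 and aged 3 were level, and the other young arrays all lay below the other aged ones. Without Ntng1, Prkcd and Vav3, known from earlier results to be called, the level was 9.61 ± 0.42 (SD, n = 5) in young and 10.88 ± 0.37 in aged mice, a difference of 1.28. This description has no test, since the list was fixed with earlier results of these data in view.

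The 25 called genes outside the thalamus list had young 2 and aged 3 nearest to each other as well. Their mean level was 8.16, 8.71, 8.13, 8.21 and 7.93 on the young arrays and 9.48, 9.51, 8.91, 9.42 and 9.52 on the aged ones. Of all 34 called genes, young 2 was the highest young array for 30, aged 3 was the lowest aged array for 33, and slide 2 gave the smallest difference for all 34. The median difference over the 34 genes was 1.4, 1.27, 1.36 and 1.63 on slides 1, 3, 4 and 5 but 0.21 on slide 2. So the called genes and the thalamus list shared the slide on which they differed least, though Gpr4 still differed there by 0.81. With the level of the thalamus list (without Ntng1, Prkcd and Vav3) as a covariate no gene was called in limma, and 283 genes had an unadjusted p under 0.05. Because that level differs between the age groups, its part in the 34 differences and the part of age cannot be told apart by this design.

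Among the called genes outside the list, 3 code for secreted Wnt proteins. Wnt9b read 6.94, 7.83, 6.87, 7.22 and 7.18 in young and 8.52, 8.79, 8.15, 8.57 and 8.65 in aged mice, a difference of 1.33 ± 0.19 (SE). Wnt3 was 1.32 ± 0.23 higher and Wnt9a 0.99 ± 0.16 higher, though another Wnt9a probe differed by 0.11. Of the 26 genes on the Wnt signalling list, 2 were called, Tcf7l2 and Wnt3, where 0.143% of all genes tested were, and 12 were higher and 14 lower with a median of -0.02. Axin2, a common target of the pathway, differed by -0.16 ± 0.22.

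Grid2ip, the delphilin scaffold of delta glutamate receptors, read 6.38, 6.97, 6.15, 6.33 and 5.22 in young and 8.67, 8.27, 7.47, 8.61 and 8.32 in aged mice. Cd247, the zeta chain of the T cell receptor, read 4.06, 5.6, 4.29, 4.38 and 3.11 in young and 7.32, 6.33, 5.92, 6.91 and 6.55 in aged mice, a difference of 2.32 ± 0.41. Of the 8 measured T cell genes none was called, 5 were higher and 3 lower, and their level ran from 5.54 to 6.44 on the young and from 5.26 to 6.86 on the aged arrays. Aox4, an aldehyde oxidase, read 2.41, 3.74, 2.46, 3 and 2.13 in young and 4.79, 5.08, 3.94, 4.81 and 5.26 in aged mice, and its signal passed the background limit on only 1 of the 5 young arrays. The transcript BB446560 was 1.57 ± 0.27 higher.

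The remaining called genes were Endou, an endoribonuclease (2.11 higher), Mrvi1 (1.33), the magnesium channel Trpm6 (1.25), Dusp27 (1.16), the muscle-type cytochrome c oxidase subunit Cox6a2 (1.06), Scube2 (1), Tanc1 (0.87), Cwh43 (0.86), Arsj (0.86), B230337E12Rik (0.79), the regulator of G protein signalling Rgs3 (0.7), Pamr1 (0.58), AK043274 (0.57), 4921511K06Rik (0.57), the metalloprotease Adamts15 (0.54) and the citron kinase Cit (0.52), each on the log2 scale. Of the 34 called genes 17 had several tested probes, and for 16 of these every probe was higher in aged mice. The exception was Rgs3, with 3 called probes and 2 that differed by -0.12 and -0.04.

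Because Tcf7l2 and Rora are DNA-binding factors, the promoters of the called genes were searched for the core of the Tcf and Lef motif, CTTTGA, and for AGGTCA, which nuclear receptors such as Rora bind, on both strands of the 250 bases before the start of transcription (RefSeq, GRCm38.p6). Of the 26 called genes with a promoter in the table, 2 held CTTTGA (7.69%, against 14% of 27025 promoters) and 0 held AGGTCA (against 13.8%). The 2 matches are shown because they are the only ones, in lower case 5′ to 3′ on the strand of the gene with the match in capitals.
Prkcd, chr14:30626315-30626374, minus strand, match in the opposite direction: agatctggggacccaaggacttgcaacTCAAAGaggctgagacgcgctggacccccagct
Dusp27, chr1:166128089-166128148, minus strand, match in the gene's direction: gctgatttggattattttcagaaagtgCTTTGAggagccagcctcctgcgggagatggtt
These are matches of letters and not binding sites, and they lie 139 and 223 bases before the start.

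The neuropeptides of the hypothalamus were mostly lower in aged mice, and none of the lower ones was called. Of 29 measured genes 26 were lower and 3 higher, with a median of -0.28 on the log2 scale. At an unadjusted p under 0.05, 9 were lower and 1 higher, where 2.7% of all genes tested were lower and 2.22% higher. The single called gene was Cck, which codes for cholecystokinin, a peptide of the thalamus and cortex as well as of the hypothalamus. It read 13.21, 13.38, 12.67, 12.93 and 12.51 in young and 14.05, 14.24, 13.72, 13.86 and 14.32 in aged mice, a difference of 1.1 ± 0.18 (SE; limma, adjusted p = 0.236). Another Cck probe differed by 0.16.

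Gnrh1, the releasing hormone for the gonadotropins, read 9.91, 9.36, 10.64, 9.63 and 9.6 in young and 9.19, 8.04, 9.36, 8.84 and 9.32 in aged mice. Young 2 and aged 3 both read 9.36 and the groups only just did not overlap, and the difference was -0.88 ± 0.29 (limma, adjusted p = 0.939). Pomc, the precursor of the satiety peptide alpha-MSH, read 14.22, 14.42, 14.44, 14.63 and 14.79 in young and 13.82, 13.76, 14.52, 13.88 and 13.92 in aged mice. Apart from aged 3 every aged array was below the young ones, and the difference was -0.52 ± 0.16 (adjusted p = 0.861). Npvf, the precursor of RFamide-related peptides, differed by -0.9 ± 0.36.

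Prok2, which codes for the clock output peptide prokineticin 2, had the lowest p among the genes lower in aged mice. The probe of lowest p read 8.55, 8.11, 9.17, 8.48 and 8.65 in young and 7.38, 7.3, 7.89, 7.72 and 7.91 in aged mice. Every aged array was below every young one, by -0.95 ± 0.2, with an adjusted p of 0.328 in limma. Nmu, which codes for the peptide neuromedin U, read 7.28, 7.14, 7.52, 6.91 and 7.37 in young and 6.23, 6.69, 6.42, 6.74 and 6.87 in aged mice, also without overlap (-0.65 ± 0.15, adjusted p = 0.436). The others of the 5 lowest were the transcript 4930542D17Rik (-0.47 ± 0.1), Vps13d (-0.58 ± 0.13) and the atrial myosin light chain Myl7 (-0.7 ± 0.16), with adjusted p-values of 0.349, 0.363 and 0.463 in limma. None of the 5 was called without a block, and all 5 had a probe called with the slide as a random block. The Vps13d probe of lowest p was dim and read at most 3.52. A brighter probe of Vps13d (mean 7.15 in young and 7.31 in aged mice) differed by 0.15 ± 0.2. The transcript 4930542D17Rik was dim too, and well above background on 4 young and 2 aged arrays.

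The peptides of feeding, arousal and water balance had smaller differences, within about 2 SE of 0. Log2 differences were -0.29 ± 0.25 for Agrp and -0.08 ± 0.15 for Npy, which drive feeding, and -0.12 ± 0.12 for Cartpt, which restrains it. Hcrt, the orexin precursor, differed by 0.12 ± 0.21 and Pmch, the precursor of melanin-concentrating hormone, by 0 ± 0.12. Avp and Oxt, the hormones of the posterior pituitary, differed by -0.09 ± 0.15 and -0.34 ± 0.21. The releasing and inhibiting hormones gave -0.31 ± 0.18 for Trh, -0.18 ± 0.17 for Ghrh and -0.23 ± 0.13 for Sst, and Kiss1, which drives Gnrh1 neurons, gave -0.35 ± 0.21. Th, the first enzyme of dopamine synthesis, differed by -0.28 ± 0.17. Crh and Nms did not pass the filter on dim probes.

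**Figure D3:**
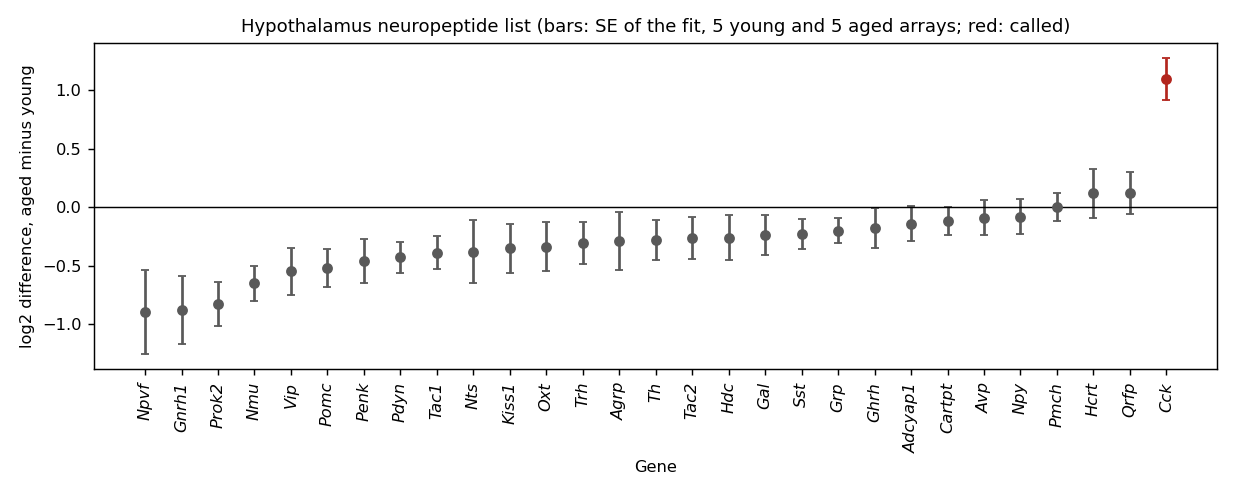
The log2 difference between aged and young arrays (y axis) for each of the 29 measured genes of the hypothalamus neuropeptide list (x axis), with bars for the SE of the fit over 5 young and 5 aged arrays. Cck, in red, is the only called gene, and 26 of 29 genes are lower in aged mice, from Npvf at -0.9 to Pmch at 0 (rounded).

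The other hypothalamus lists leaned the same way. Of 16 transcription factors 15 were lower, with a median of -0.31 and none called. Isl1, a factor of Pomc neurons, was -0.55 ± 0.17 and its groups did not overlap. The level of this list was 9.11, 9.35, 9.54, 9.37 and 9.72 in young and 8.86, 9.11, 9.38, 9.07 and 9.09 in aged mice, and aged 3 lay among the young arrays. Of 32 receptor genes 23 were lower, with a median of -0.13 and none called, and the lowest was Crhr2, a receptor for urocortins (-0.44 ± 0.14). On slide 2 the transcription factors differed by 0.03 and the neuropeptides by -0.05, where the thalamus list differed by -0.01. The part of thalamic tissue in these differences was not tested. Without slides 1 and 2 all 16 transcription factors and 26 of 29 neuropeptides were lower. Vip, a peptide of the suprachiasmatic clock, was called in that fit (-0.95 ± 0.15), which is a description only.

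The lists for other regions varied by array. Aged 1 held cerebellar transcripts. The level of 9 cerebellum genes was 11.6 on aged 1 and 7.85 to 8.22 on the other 9 arrays. Gabra6, a GABA receptor subunit of cerebellar granule cells, read 13.01 on aged 1 and at most 3.05 elsewhere, and was well above background on 2 of 10 arrays. Cbln3, a granule cell protein, read 10.43 on aged 1 and 5.96 on aged 4, the next highest, and Pcp2, of Purkinje cells, read 13.97 there against 9.95 to 11.36 on the rest. All 10 cerebellum genes were highest on aged 1, and none was called. Aged 1 also had the highest level of the cortex and hippocampus list, 9.22 against 7.89 to 8.95. Without aged 1 no gene was called in limma, and 1131 genes had an unadjusted p under 0.05, while the thalamus list differed by 1.29 in place of 1.31.

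Striatal genes stood high on young 1 and young 3. The 11 measured striatum genes had a level of 10.86 and 11.18 there and 9.93 to 10.2 on the other 8 arrays. All 11 were lower in aged mice, with a median of -0.4 and none called, and Drd1, the D1 dopamine receptor, differed by -1.05 ± 0.41. Slc17a7, the vesicular glutamate transporter of cortical neurons, read 8.48, 6.33, 4.08, 4.77 and 2.67 in young and 10.02, 7.85, 6.69, 7.37 and 8.26 in aged mice. The groups overlapped and the difference of 2.78 ± 0.99 was not called. Without slides 1 and 2, on 3 arrays a side and as a description only, Slc17a7 was called (3.98 ± 0.53). Its highest reading was on aged 1, the array that held cerebellar transcripts. Slc17a6, the transporter of hypothalamic and thalamic neurons, differed by 0.39 ± 0.19. Of the 8 habenula genes 5 were higher and 3 lower, with a median of 0.03. The part of these regions in the age differences was not tested.

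**Figure D4:**
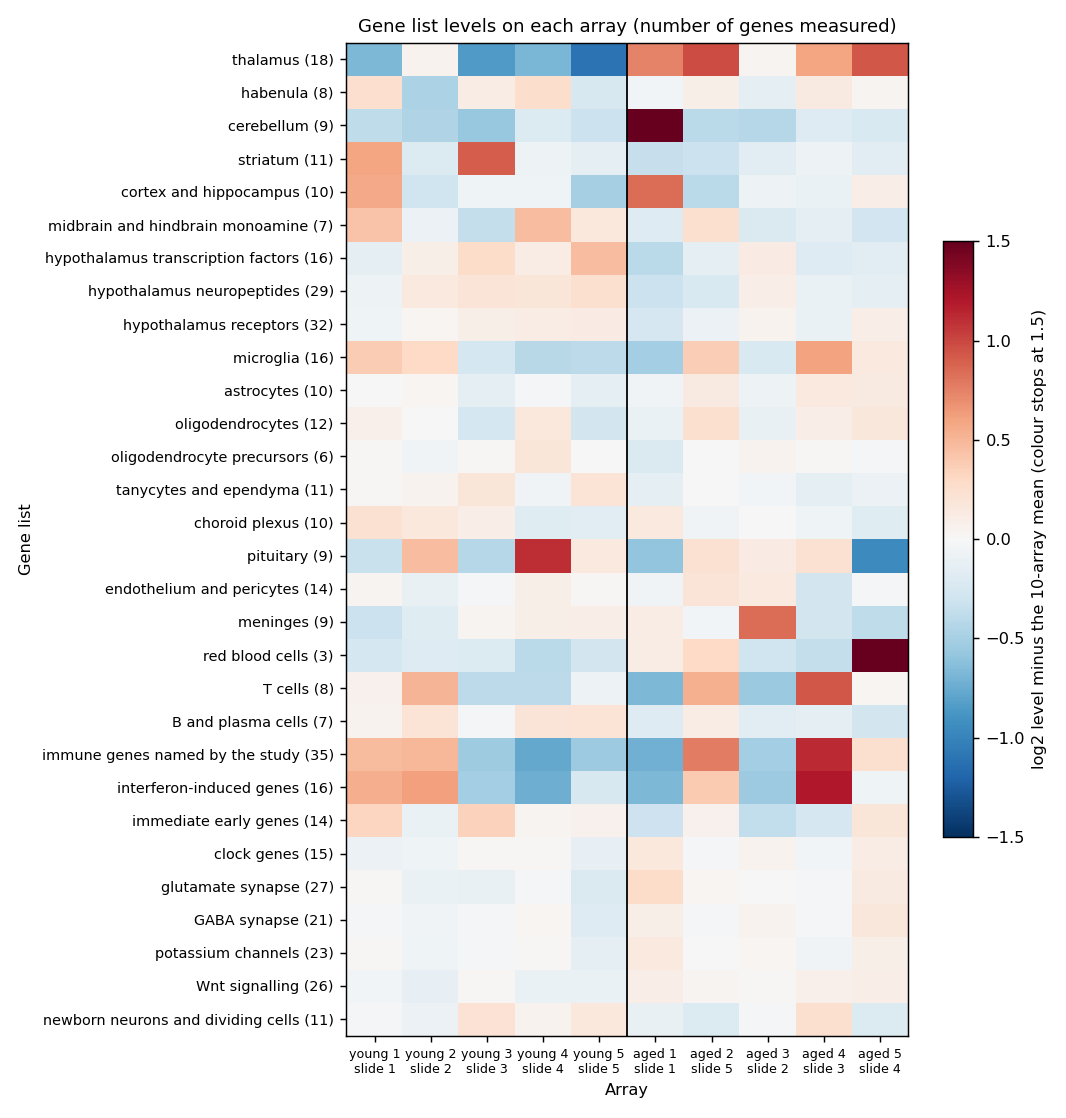
Level of 30 gene lists (y axis, with the number of genes measured) on each array (x axis), as the log2 level minus the mean of the 10 arrays, with red for higher and blue for lower. The thalamus list separates young from aged arrays except for young 2 and aged 3, the cerebellum list stands out on aged 1, and the immune and interferon lists are high on young 1, young 2, aged 2 and aged 4.

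Immune genes varied as much within an age group as between them. Of the 35 immune genes the study names 33 were higher in aged mice, with a median of 0.3 and none called. Their level was 11.48, 11.5, 10.47, 10.24 and 10.46 on the arrays labelled young and 10.28, 11.77, 10.49, 12.12 and 11.24 on those labelled aged. The arrays labelled aged 1 and aged 3 were as low as the lower young arrays. Clec7a, a pattern recognition receptor of microglia, read 10.27, 10.64, 7.12, 6.48 and 6.93 in young and 7.32, 11.15, 7.74, 11.45 and 9.58 in aged mice, and differed by 1.16 ± 1.07 (limma, adjusted p = 0.997). Cd68, a lysosomal protein of macrophages, differed by 0.41 ± 0.38. The 16 interferon-induced genes went the same way, aged minus young being -1.22 and -1.16 on slides 1 and 2 and 1.72, 0.67 and 0.64 on slides 3 to 5.

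Of the 16 microglia genes 13 were higher and none was called, and P2ry12 and Tmem119, which mark resting microglia, differed by -0.19 ± 0.13 and -0.02 ± 0.19. Without slides 1 and 2 all 35 immune genes were higher, with a median of 1.18, and 12 were called, where 0.656% of all genes tested were, among them Clec7a (3.87 ± 0.48), Itgax (3.81 ± 0.51) and C4b (1.89 ± 0.24). The microglia list had a median of 0.87 in that fit, with Tyrobp and Cd68 called. Slides 1 and 2 were left out for the values of such genes, so these medians and counts are a description only. In BALB mice, 30 of the 35 genes were called, all higher, where 0.913% of all genes tested were, with young arrays at 9.77 to 10.12 and aged arrays at 10.76 to 11.03. The study picked this list partly from those arrays, so that count is not independent evidence. In CBA mice 6 of 29 measured genes were called, where 0.419% of all genes tested were, and young and aged arrays overlapped (8.79 to 9.34 and 8.46 to 10.09). Each cohort was normalized alone, so levels are compared within a cohort only.

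Glial and vascular lists had medians near 0. Astrocyte genes had a median of 0.14, oligodendrocyte genes of 0.1 and endothelial genes of 0.01, with none called. Gfap, the astrocyte filament, differed by 0.19 ± 0.23 and Mbp, of myelin, by 0.04 ± 0.13. Of the 11 tanycyte and ependyma genes 9 were lower, with a median of -0.22 and none called. Ttr, a transcript of the choroid plexus, differed by 0.18 ± 0.6 and was well above background on 2 young and 3 aged arrays. Per1, of the circadian clock, differed by 0.2 ± 0.11 and Hlf, a clock output factor, by 0.49 ± 0.12, the latter without overlap and called only with the slide as a random block. Fos, an immediate early gene, differed by -0.04 ± 0.37. Receptors and transporters of glutamate and GABA had medians of 0, and none was called. Gabrd, the delta subunit of the GABA receptor, differed by 2.02 ± 0.77, with values overlapping between the ages.

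None of the 34 genes was called in the other strains. In BALB hypothalamus 31 of the 34 were measured, 8 higher and 23 lower in aged mice, with a median of -0.22, where 0.913% of all genes tested were called. In CBA hypothalamus 23 were measured, 16 higher and 7 lower, with a median of 0.1, where 0.419% of all genes were. Ptpn3 in BALB mice was read by another probe than in C57BL/6 mice. So were Rgs3, Rora, Wnt3, Tanc1, Tcf7l2 and Cit in CBA mice, whose arrays have another design. In C57BL/6 mice these other probes of Ptpn3 and Rgs3 differed by only 0.22 and -0.12. Gpr4 differed by -0.3 ± 0.22 in BALB and -0.2 ± 0.3 in CBA mice. Prkcd differed by -0.29 ± 0.69 and 0.21 ± 0.73, with wide spread in both strains. Of the thalamus list, 2 of 18 genes were higher in BALB mice (median -0.26) and 8 of 14 in CBA mice (median 0.07), and none was called.

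Whether the age difference itself differed between C57BL/6 and BALB mice was tested with the hypothalamus arrays of both normalized together. The arrays of middle-aged BALB mice (12-13 months) were among them. No gene of 24074 had B above 0 in limma for this interaction, 1517 had an unadjusted p under 0.05, and the lowest adjusted p was 0.743. Gpr4 came closest among the 34, with 1.15 in C57BL/6 and -0.28 in BALB mice (difference 1.43 ± 0.28, B = -0.17). C3 went the other way, with -0.17 in C57BL/6 and 1.92 in BALB mice (difference -2.09 ± 0.44, B = -0.66). The C57BL/6 value for C3 averages slides of opposite direction. With C57BL/6 normalized alone and slides 1 and 2 left out, C3 was 0.89 ± 0.25 higher in aged mice. The interaction includes the arrays of slides 1 and 2 and was not fitted without them. For Gnrh1 the differences were -0.95 and -1.1, with a difference between strains of 0.14 ± 0.44. A gene called in 1 strain is thus not shown to differ between them here. Without the array labelled young 4, 28 genes passed the interaction, the highest count among the arrays left out in turn.

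**Figure D5:**
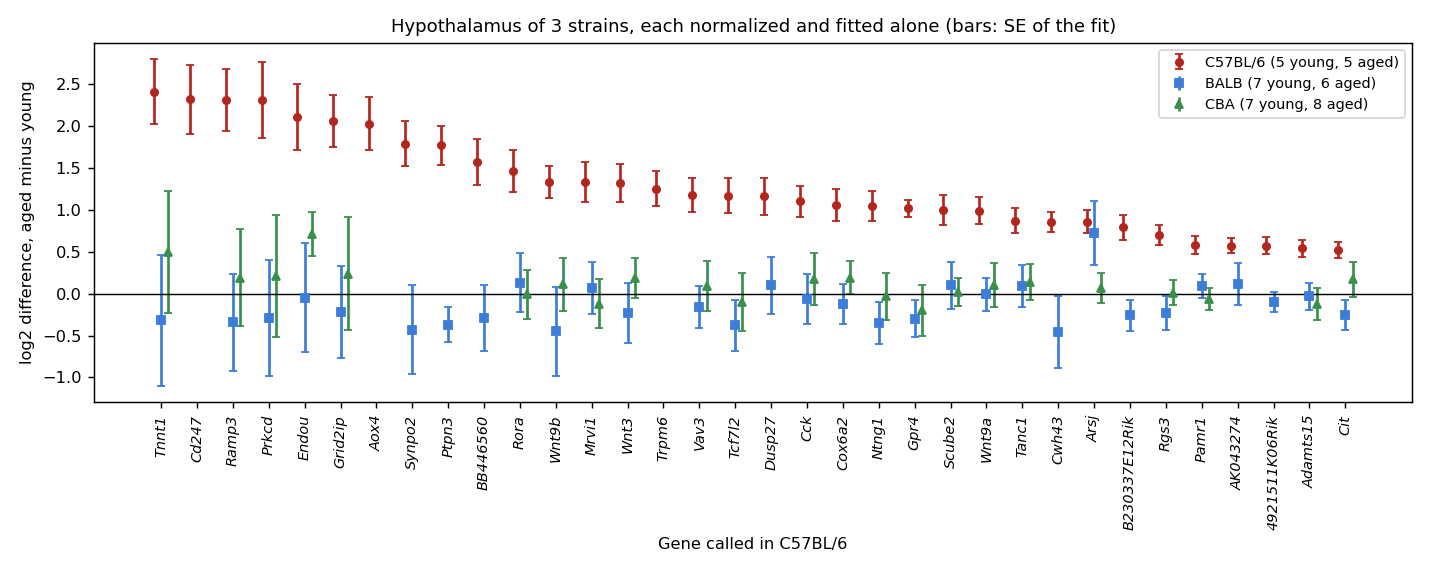
The log2 difference between aged and young hypothalamus (y axis) of the 34 genes called in C57BL/6 mice (x axis), in C57BL/6 (circles), BALB (squares) and CBA mice (triangles), each cohort normalized and fitted alone, with bars for the SE of the fit. The C57BL/6 values run from 0.52 to 2.41 because the genes were chosen for them, and the other strains lie around 0, Arsj in BALB (0.72) and Endou in CBA mice (0.71) being the highest.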

How the data were processed

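The authors deposited Agilent Feature Extraction output, in which the intensity of a spot is its linear brightness after background subtraction. Per the file headers the software was version 10.1.1.1, and the submitters' processing notes name 9.1 and limma. A table of the whole series, with log2 values, was deposited too and served as an alternative. Each of the 10 columns matched its own array best (rank correlation 1, column medians 7.95 to 7.96), and how it was centred is not stated.

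Spots that were controls or carried an outlier mark were dropped, spots of a probe were averaged, and log2 of the processed intensity was quantile normalized over the cohort. Of 41174 probes, 25345 were named through RefSeq accessions and the rest keep the name in files of the same design, since the files used here lack that column. The 34696 probes well above background on at least 5 of 10 arrays were tested with limma 3.58.1 (R 4.3.3, prior proportion 0.01), without a slide or replicate term, and adjusted p-values are Benjamini-Hochberg over those probes. The steps were tested on simulated data. A gene is given by its brightest probe, a called gene by its probe of highest B. Named were every called gene, per-array values for the 10 largest without overlap, the 5 lower genes of lowest p, a fixed list, and for each gene list the called genes and some of the largest differences. Axin2, P2ry12, Tmem119, Ucn, Pcdhb3 and further cerebellum genes were added after their values were seen. Members and gene lists were chosen with earlier results of these data known. The number of arrays limits the precision.

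The check on pairing gave correlations of deviations of 0.05, 0.03, 0, -0.46 and -0.09 for arrays with the same replicate number, so the numbers do not pair mice. For arrays of the same slide they were 0.05, 0.23, 0.38, 0.48 and 0.43. Alternatives were another scaling, normexp on median spot signals, other filters, the series table, slide and replicate blocks, a thalamus covariate, array weights and arrays left out.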

Additional observations from a re-analysis of the deposited data

Results flagged for a closer look

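Within groups of 5 arrays, 3 of 60 list levels and 7 of 68 levels of called genes had 1 array far from the others by Dixon's test, which chance gives in about 1 of 20 groups. Aged 1 stood apart in the cerebellum list (11.6, the other aged arrays 7.99 to 8.22) and in the oligodendrocyte precursor list (12.24, the others 12.44 to 12.51). Aged 2 stood apart in the midbrain and hindbrain monoamine list (7.85, the others 7.32 to 7.47).

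All 7 outlying values of called genes were of the 2 arrays of slide 2. Aged 3 was low for Ramp3 (12.19, the other aged arrays 13.02 to 13.32), Wnt9a (8.69, the others 9.29 to 9.49), Cox6a2 (11.3, the others 11.89 to 12.07), Tcf7l2 (7.87, the others 8.41 to 8.55) and Endou (8.3, the others 9.7 to 9.82). Young 2 was high for Cox6a2 (11.39, the other young arrays 10.59 to 10.74) and Pamr1 (10.62, the others 10.19 to 10.3). What sets these 2 arrays apart was not tested.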

How the results depend on the processing

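The count of 34 called genes depended on the fit. It was 22 with scaling to the 75th percentile, 21 with no filter on dim probes, 17 with the slide as a fixed block (10 higher, 7 lower) and 147 with the slide as a random block (123 higher, 24 lower, all 34 among them). With the replicate block it was 0, with 1045 genes at an unadjusted p under 0.05 in limma, and with the thalamus level as a covariate 0, with 283. At an adjusted p under 0.05 it was 1. Leaving out 1 array in turn gave 0 to 75. It was 0 (835 to 1356 genes at an unadjusted p under 0.05) without young 1, young 5, aged 1, aged 2 or aged 5, 1 without young 3, 5 without aged 4 and 16 without young 4, and it was 73 without young 2 and 75 without aged 3. Leaving out both arrays of slide 2 gave 103, and of slide 1, 3, 4 or 5 gave 0 (764 to 1545 genes at an unadjusted p under 0.05). Leaving out the 4 arrays of slides 1 and 2 gave 158. Slides were left out after seeing the data. The interaction gave 0 to 28 genes when 1 array was left out: 3 without young 2, 28 without young 4, 3 without aged 3 and 9 without aged 4. Prkcd turned to -0.22 with the thalamus covariate, and the other called genes kept their direction under the alternatives run. The thalamus list level stayed between 1.12 and 1.71. The cause of these changes was not tested. Dim probes limit what can be read: Aox4, Trpm6 and Cd247 were not well above background on every young array.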

Other observations

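Without slides 1 and 2, genes of activated microglia and macrophages were among the called genes. Those given here were chosen after their values were seen, on 3 arrays a side, and the slides were left out for values of such genes. Cst7, an inhibitor of lysosomal proteases, read 4.78, 3.48 and 4.35 on the arrays labelled young 3 to 5 and 9.13, 9.64 and 7.94 on those labelled aged 2, 4 and 5. Mmp12, a macrophage elastase, differed by 3.74 ± 0.38 (SE) and Gpnmb, a glycoprotein of lysosomes, by 2.3 ± 0.3. Retnla, a secreted product of alternatively activated macrophages, differed by -2.5 ± 0.27. Both Mmp12 and Retnla were dim in 1 group, which leaves the size of their differences uncertain. Mmp12 read 1.74, 1.15 and 1.06 on young 3 to 5, and Retnla 1.82, 1.7 and 1.14 on aged 2, 4 and 5. The lowest adjusted p of that fit in limma was 0.00285, for Endou.

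Tissue next to the hypothalamus also varied. The pituitary list was highest on young 4 (8.35) and lowest on aged 5 (6.28), both on slide 4. The meninges list stood at 10.77 on aged 3, and the level of 3 red blood cell genes was 12.04 on aged 5 and 10.04 to 10.75 elsewhere.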
